A study of Mus musculus with 4 samples.

Results

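Interferon-stimulated genes are genes that cells switch on when an interferon binds its receptor, and many of their products block steps of virus replication. A list of 44 of them was described over 4 arrays of mouse B lymphocytes, each gene by its brightest probe set among those that the platform annotation assigns to exactly 1 symbol. Such a probe set was found for 38 of the 44, out of 22180 genes with one. All 38 were among the 12456 genes whose highest signal reached a signal floor of 3.83, set at the median over probe sets that have a symbol. Oas1a, Dtx3l, Gbp2, Ifi27l2a, Ifi44 and Ifi47 are not analysed here.

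The arrays held RNA of B lymphocytes of C57BL/6 mice, sorted by the surface protein B220 from suspensions of spleen, thymus and lymph node cells. There were 4 groups of 1 array: wild type without stimulation (WT_NS), wild type with stimulation (WT_ST), Tilcara without stimulation (TIL_NS) and Tilcara with stimulation (TIL_ST). Tilcara (Til) is described in the labels as a PKCbeta mutant on the same background, but the sources used here name neither its allele nor the age of the mice. Stimulation was 4 hours with phorbol 12-myristate 13-acetate (PMA), an activator of protein kinase C, at 10 ng/mL and the calcium ionophore A23187 at 1 µM. The labels give no separate treatment of the non-stimulated cells, and neither whether they were kept in culture for the same time nor how many mice gave cells to an array is stated. The comparisons ask how these genes respond to signals that mimic antigen receptor engagement, and whether a PKCbeta mutant responds differently.

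Type I interferons bind the receptor chains encoded by Ifnar1 and Ifnar2, and the kinases JAK1 and TYK2 then activate STAT2, which acts with IRF9 at the interferon-stimulated response element (ISRE). Interferon gamma acts through the chains encoded by Ifngr1 and Ifngr2 and the kinases JAK1 and JAK2, and its target promoters often hold a gamma-activated site (GAS). IRF1, itself an interferon-induced factor that NF-kB can also induce, binds sites like the ISRE. Resting lymphocytes are known to keep a low, constitutive level of many interferon-stimulated genes.

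Signals are RMA values in log2 units, so that 1 unit is 2-fold. A response is the stimulated minus the non-stimulated array of 1 genotype, and since each group was 1 array, the 4 single-group differences have no test. A limma fit with stimulation and genotype as additive terms over the 4 arrays was the single test. It has 1 residual degree of freedom, which is the difference between the responses of the genotypes. The error of a gene comes from that difference, shrunk towards a value shared by all genes. A p-value sets the size of an effect against that error, so it measures no spread between replicates. "Rose" and "fell" are used for genes with a Benjamini-Hochberg adjusted p under 0.05 over all 12456 genes in that fit. A fold is approximate wherever a signal lies below the floor, as it did in at least 1 array for 11 of the 38 genes.

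Of the markers written for B cells, 9 of 10 were measured and all 9 lay above the floor in every array. Their summed linear signal was 12120 in WT_NS and 11981 in TIL_NS, and 2238 in WT_ST and 2733 in TIL_ST. Markers of neutrophils summed to 832 in WT_NS against 83.0 to 107 in the other 3 arrays, and 7 of 12 lay below the floor in WT_NS against 11, 11 and 12 in WT_ST, TIL_NS and TIL_ST. The WT_NS array thus stands apart mainly in the neutrophil markers S100a8 and S100a9, which read 9.0 and 7.61 there. The part of this array in the differences below was not tested. The Tilcara response does not use it. In such bulk samples, fewer cells of a type and less RNA per cell cannot be told apart.

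Stimulation split the interferon-stimulated genes. Most listed antiviral genes that changed fell, led by Samd9l, Herc6 and Rtp4, whereas the interferon-inducible GTPase genes Gbp7, Irgm1, Igtp and Irgm2, the factor gene Irf1 and the membrane protein gene Ifitm2 rose. In the limma fit 18 of 38 fell (47.4%, where 22.8% of all genes fell), 6 rose (15.8%, where 22.0% of all genes rose) and 14 were not called. In wild type 16 of 38 were at least 2-fold lower (42.1%, against 15.9% of all genes) and 5 at least 2-fold higher (13.2%, against 13.4%). In Tilcara 13 were at least 2-fold lower (34.2%, against 14.3% of all genes) and 6 at least 2-fold higher (15.8%, against 11.9%). The median response was −0.71 in wild type and −0.55 in Tilcara, where the median over all genes was 0.03 and 0.04. The 13 genes at least 2-fold lower in Tilcara were also at least 2-fold lower in wild type, and 5 genes were at least 2-fold higher in both.

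**Figure D1:**
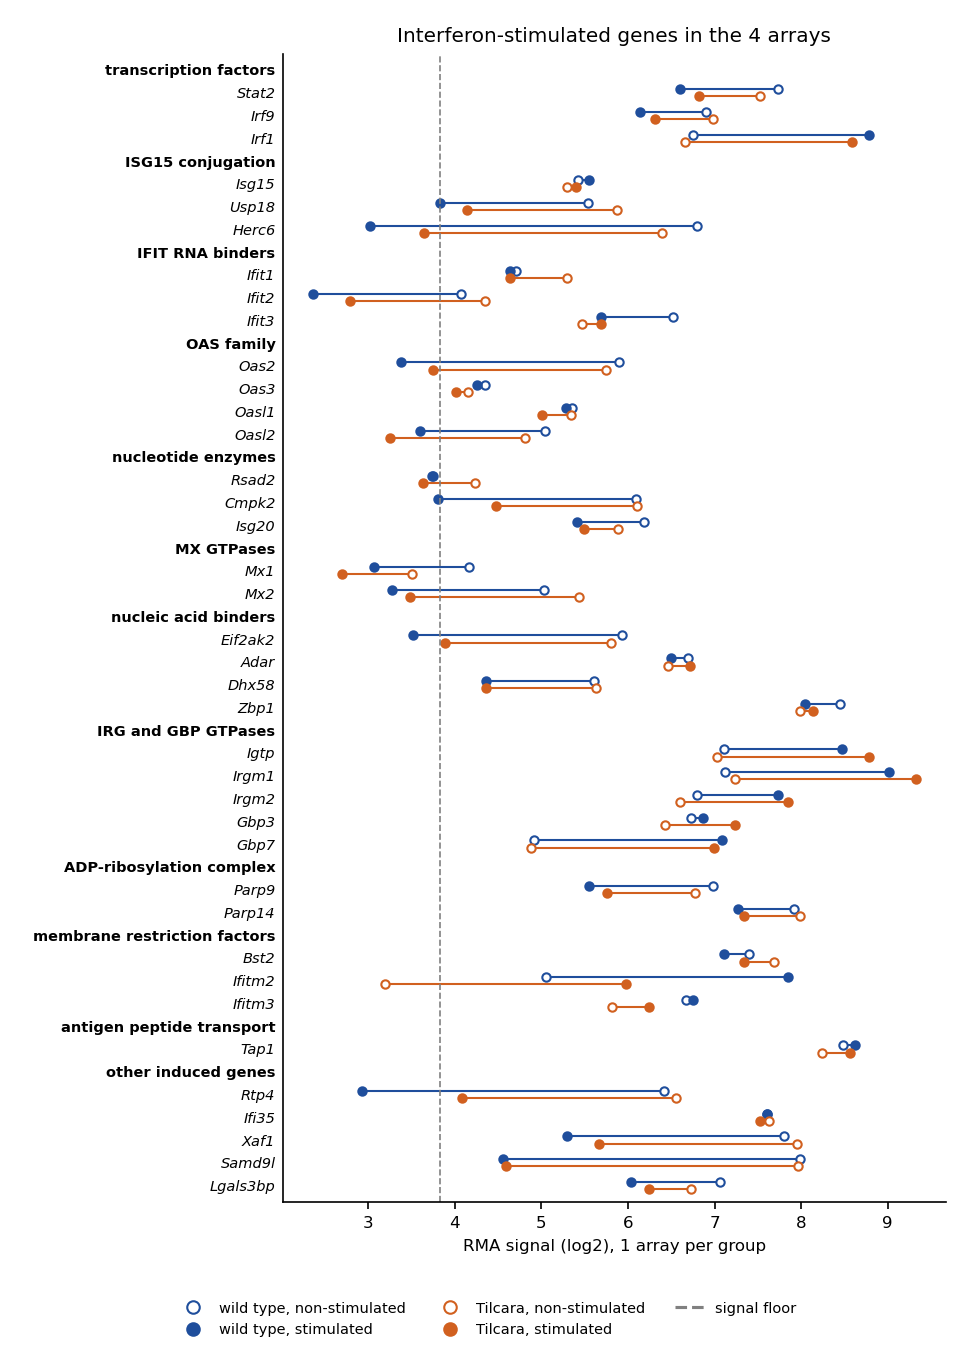
RMA signal (log2) of the 38 measured interferon-stimulated genes, grouped by role, in the 4 arrays. Open circles are non-stimulated and filled circles stimulated arrays, blue is wild type and orange Tilcara, and the dashed line is the signal floor of 3.83. Lines run to the right for Irf1, Igtp, Irgm1, Irgm2, Gbp7 and Ifitm2 in both genotypes and to the left for the 18 genes that fell.

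The transcription factors moved apart. Stat2, the STAT that type I interferon signalling needs, read 7.73 in WT_NS, 6.60 in WT_ST, 7.53 in TIL_NS and 6.83 in TIL_ST, and fell (limma log2 change −0.91, SE 0.18, adjusted p = 0.0162). Irf9, the DNA-binding partner of STAT2, read 6.90, 6.13, 6.98 and 6.31 in the same order, and fell by 0.72 on the log2 scale (SE 0.15, adjusted p = 0.0189). Irf1 read 6.75 and 6.65 without stimulation and 8.79 and 8.59 with it, in wild type and Tilcara, and rose by 1.99 (SE 0.15, adjusted p = 0.00171). In all 3, each stimulated array lay on the same side of both non-stimulated arrays.

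The ISG15 system gave 2 decreases and 1 gene without a call. ISG15 is a ubiquitin-like protein that is attached to other proteins, in the mouse by the ligase HERC6, and is removed by USP18, which also dampens signalling at the type I receptor. Isg15 read 5.42, 5.55, 5.30 and 5.40 in WT_NS, WT_ST, TIL_NS and TIL_ST, a limma change of 0.12 (adjusted p = 0.559). Usp18 read 5.54, 3.83, 5.87 and 4.15, and fell by 1.72 on the log2 scale (SE 0.15, adjusted p = 0.00212), with nearly equal responses of −1.71 and −1.73. Herc6 read 6.80, 3.02, 6.39 and 3.65, and fell by 3.26 (SE 0.29, adjusted p = 0.00224). Both stimulated signals of Herc6 lay below the floor, so its 13.7-fold and 6.69-fold decreases in wild type and Tilcara are approximate.

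Among the IFIT genes, whose products bind viral RNA, only Ifit2 was called. Ifit2 read 4.08, 2.36, 4.35 and 2.79 in WT_NS, WT_ST, TIL_NS and TIL_ST and fell by 1.64 (limma, SE 0.15, adjusted p = 0.00246), from signals close to the floor. Ifit1 read 4.71, 4.64, 5.29 and 4.64, and Ifit3 read 6.52, 5.69, 5.47 and 5.69. For both genes the stimulated arrays were alike and the non-stimulated arrays differed by genotype, in opposite directions. The limma changes were −0.36 for Ifit1 (adjusted p = 0.214) and −0.31 for Ifit3 (adjusted p = 0.432). The mouse IFIT, OAS, MX, IRG and GBP families hold similar paralogs, and how well a probe set tells them apart was not tested.

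Of the OAS family, 2 of 4 measured genes fell and 2 were not called. OAS enzymes make oligoadenylates that activate the nuclease RNase L, while OASL1 and OASL2 belong to the OAS-like branch. Oas2 read 5.90, 3.38, 5.75 and 3.74 and fell by 2.27 (limma, SE 0.19, adjusted p = 0.00207), and Oasl2 read 5.04, 3.60, 4.82 and 3.25 and fell by 1.5 (SE 0.15, adjusted p = 0.00293). Oas3, between 4.02 and 4.34, and Oasl1, between 5.01 and 5.35, had limma changes of −0.11 and −0.20 and adjusted p-values of 0.570 and 0.358.

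Cmpk2 and Rsad2 are neighbours in the genome and encode a nucleotide kinase and viperin, which makes a chain-terminating nucleotide, yet their signals differed in behaviour. Cmpk2 read 6.10, 3.81, 6.11 and 4.48 in WT_NS, WT_ST, TIL_NS and TIL_ST and fell by 1.96 (limma, SE 0.21, adjusted p = 0.00369). Rsad2 stayed between 3.63 and 4.23, near the floor, with a limma change of −0.30 (adjusted p = 0.305), so a decrease of it was not measurable on these arrays. Isg20, an exonuclease gene, read 6.19, 5.41, 5.88 and 5.49 and just missed the threshold (limma change −0.59, adjusted p = 0.0503), which it passed in 5 of 6 alternative settings. Mx2 fell by 1.85 (limma, SE 0.15, adjusted p = 0.00203) from signals of 5.03 and 5.43 to 3.28 and 3.48 in wild type and Tilcara. Mx1 fell by 0.96 (SE 0.16, adjusted p = 0.0108), but with signals of 4.17 and 3.51 without stimulation it was close to or below the floor from the start. Both encode dynamin-like GTPases that trap viral nucleocapsids; C57BL/6 mice are known to carry defective alleles of both genes.

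Of the 4 genes for proteins that bind viral or abnormal RNA, Eif2ak2 and Dhx58 fell. Eif2ak2 encodes PKR, a kinase that stops translation on double-stranded RNA. It read 5.93, 3.52, 5.80 and 3.89 and fell by 2.16 (limma, SE 0.19, adjusted p = 0.00220). Dhx58, for the RIG-I-like protein LGP2, read 5.61 and 5.64 without stimulation and 4.36 in each stimulated array, a decrease by 1.26 (SE 0.15, adjusted p = 0.00421). Adar, for an RNA-editing enzyme, stayed between 6.46 and 6.72 (limma change 0.03, adjusted p = 0.903). Zbp1, a sensor of Z-form nucleic acids that can start cell death, stayed between 7.99 and 8.45 (limma change −0.13, adjusted p = 0.648).

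The largest decreases lay among genes with varied roles. Samd9l, an inhibitor of translation and virus growth, read 7.98 in WT_NS and 7.96 in TIL_NS against 4.55 in WT_ST and 4.60 in TIL_ST. It fell by 3.40 (limma, SE 0.15, adjusted p = 0.00109), a 10.8-fold and a 10.3-fold decrease in single arrays, all above the floor. Rtp4, a chaperone that also restricts some viruses, read 6.42, 2.93, 6.56 and 4.09 and fell by 2.98 (SE 0.28, adjusted p = 0.00263). Xaf1, a pro-apoptotic gene, read 7.81, 5.30, 7.95 and 5.67 and fell by 2.40 (SE 0.16, adjusted p = 0.00145). Parp9 and Parp14, 2 ADP-ribosyltransferase family genes, fell by 1.22 (adjusted p = 0.00717) and 0.65 (adjusted p = 0.0244), both from signals above 6 and to signals above 5. Lgals3bp, a secreted glycoprotein gene, fell by 0.76 (adjusted p = 0.0347), a call lost without a filter on low signals; its dimmer probe set gave responses of −0.49 and −0.56, against −1.03 and −0.49 for the brightest. Ifi35 stayed between 7.52 and 7.63, and its other probe set also gave small responses of 0.05 and −0.37.

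The GTPase genes went the other way. IRG and GBP proteins are interferon-gamma-inducible GTPases that attack the vacuoles of intracellular parasites and bacteria. Gbp7 read 4.92 and 4.88 without and 7.08 and 6.99 with stimulation, in wild type and Tilcara, and rose by 2.14 (limma, SE 0.15, adjusted p = 0.00156). Irgm1 read 7.13 and 7.24 without and 9.02 and 9.32 with stimulation, and rose by 1.99 (SE 0.15, adjusted p = 0.00181). Igtp rose by 1.56 (SE 0.17, adjusted p = 0.00384) and Irgm2 by 1.09 (SE 0.16, adjusted p = 0.00787). Gbp3 read 6.73, 6.86, 6.43 and 7.24 in WT_NS, WT_ST, TIL_NS and TIL_ST, and its limma change of 0.47 was not called (adjusted p = 0.149). The 5 measured genes had a median response of 1.36 in wild type and 1.76 in Tilcara, and all 5 responses were above 0 in each genotype. Without these 5, the other 33 had 18 that fell, 2 that rose and a median response of −0.83 in wild type and −0.65 in Tilcara. Among paralogs outside the list, chosen after their values were seen, Gbp4 and Gbp5 rose by 1.34 and 1.89 (limma, adjusted p = 0.00478 and 0.00666), while Gbp9 fell by 1.25 (adjusted p = 0.00820).

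Ifitm2 had the largest increase of the list. IFITM proteins sit in endosomal and plasma membranes and hinder the fusion of enveloped viruses. Ifitm2 read 5.05 in WT_NS, 7.84 in WT_ST, 3.19 in TIL_NS and 5.97 in TIL_ST, and rose by 2.79 (limma, SE 0.15, adjusted p = 0.00118). Its responses were 6.92-fold in wild type and 6.87-fold in Tilcara, the latter from a signal below the floor. Ifitm3 read 6.67, 6.75, 5.82 and 6.24 in the same order (limma change 0.25, adjusted p = 0.287). Bst2, for tetherin, which holds budding virus at the cell surface, stayed between 7.11 and 7.69 (limma change −0.32, adjusted p = 0.151). Tap1, a subunit of the peptide transporter of MHC class I presentation, stayed between 8.25 and 8.62 (limma change 0.23, adjusted p = 0.281).

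**Figure D2:**
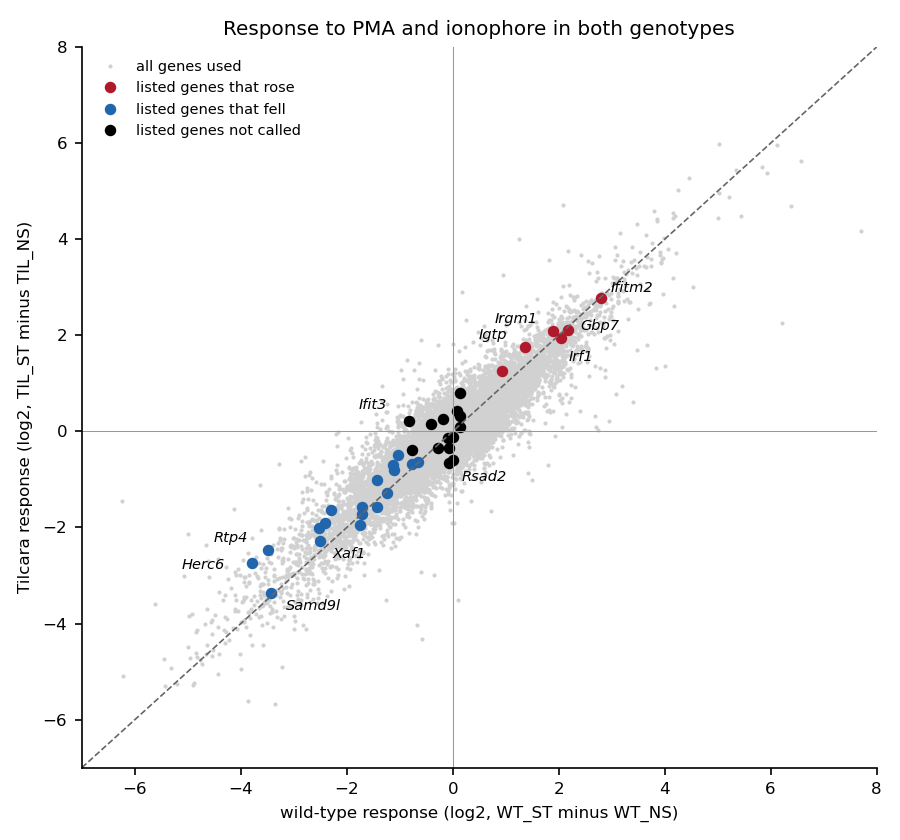
Response in Tilcara (vertical axis, log2) against response in wild type (horizontal axis, log2); grey points are the 12456 genes used, coloured points the 38 interferon-stimulated genes by their limma call, and the dashed line marks equal responses. The 6 genes that rose lie at the upper right, the 18 that fell at the lower left, and Herc6, Rtp4 and Ifit3 lie above the line.

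Promoter motifs were counted for genes that rose, fell or were not called. Of the 38 genes, 29 had an entry in the RefSeq promoter table (build GRCm38.p6), and the 250 bases before each listed start were searched on both strands. Genes without an entry were Rtp4, Mx1, Mx2, Oas2, Usp18, Dhx58, Parp9 and Parp14, which fell, and Zbp1, which was not called. The search thus covered 6 of 6 genes that rose, 10 of 18 that fell and 13 of 14 not called, so counts for genes that fell are incomplete. Motifs were the ISRE core (TTTC, any 2 bases, TTTC), the GAS motif (TTC, any 3 bases, GAA) and the NF-kB consensus; matches of different motifs may overlap. An ISRE core was in 5 of 6 promoters of genes that rose, in 1 of 10 of genes that fell and in 7 of 13 of genes not called, against 3.46% of all 27025 genes in the table. A GAS motif was in 4 of 6, 2 of 10 and 2 of 13 of them, against 8.13% of all genes, and an NF-kB motif in 1 of 6, 1 of 10 and 5 of 13, against 8.23%. These matches are descriptions of sequence and no test was made of them. No match says only that these letters are absent from that window.

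The stretches below are the 160 bases before the start, 5′ to 3′ on the gene's strand, with ISRE, GAS and NF-kB matches in capitals. Ifitm2 had the largest increase of the list and Samd9l and Herc6 were among the 3 largest decreases; Rtp4, the other of these, had no entry. Ifit3 is shown for its unlike responses.
Ifitm2 promoter, chr7:140955962-140956121, minus strand: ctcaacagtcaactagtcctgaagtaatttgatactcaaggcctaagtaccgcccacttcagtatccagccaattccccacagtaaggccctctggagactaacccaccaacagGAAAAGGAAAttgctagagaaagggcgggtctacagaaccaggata
Samd9l promoter, chr6:3399572-3399731, minus strand: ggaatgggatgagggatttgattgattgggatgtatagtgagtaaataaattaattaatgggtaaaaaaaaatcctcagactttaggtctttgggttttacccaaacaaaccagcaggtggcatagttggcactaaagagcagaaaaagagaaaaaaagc
Herc6 promoter, chr6:57580832-57580991, plus strand: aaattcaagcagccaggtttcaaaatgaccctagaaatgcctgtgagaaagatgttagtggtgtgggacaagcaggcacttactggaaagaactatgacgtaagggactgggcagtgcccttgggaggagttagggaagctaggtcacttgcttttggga
Ifit3 promoter, chr19:34583369-34583528, plus strand: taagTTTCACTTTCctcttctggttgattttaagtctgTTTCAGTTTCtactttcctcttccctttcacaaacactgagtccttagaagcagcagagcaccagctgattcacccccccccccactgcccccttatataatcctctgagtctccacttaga
Ifitm2 holds an ISRE core that begins 46 bases before the start, and Ifit3, which was not called, holds 2 cores. Samd9l and Herc6 hold none of the 3 motifs in these stretches. Whether a motif is linked to a response was not tested. Irf1 and the measured GTPase genes were chosen for printing after their values were seen, since 5 of these 6 rose.
Irf1 promoter, chr11:53769854-53770013, plus strand: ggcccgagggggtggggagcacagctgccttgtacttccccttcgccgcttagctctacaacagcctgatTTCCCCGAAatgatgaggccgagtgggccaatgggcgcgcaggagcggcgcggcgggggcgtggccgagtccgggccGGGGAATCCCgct
Igtp promoter, chr11:58199396-58199555, plus strand: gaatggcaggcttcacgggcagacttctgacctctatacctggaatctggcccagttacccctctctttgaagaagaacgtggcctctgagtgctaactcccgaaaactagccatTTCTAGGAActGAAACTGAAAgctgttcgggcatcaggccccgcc
Irgm2 promoter, chr11:58214817-58214976, plus strand: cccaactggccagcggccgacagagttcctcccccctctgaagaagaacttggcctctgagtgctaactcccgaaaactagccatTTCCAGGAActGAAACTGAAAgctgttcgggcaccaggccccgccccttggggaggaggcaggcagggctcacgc
Irgm1 promoter, chr11:48871421-48871580, minus strand: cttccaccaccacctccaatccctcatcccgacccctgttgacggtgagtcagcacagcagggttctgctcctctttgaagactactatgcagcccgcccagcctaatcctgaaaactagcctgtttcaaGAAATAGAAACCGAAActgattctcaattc
Gbp7 promoter, chr3:142530176-142530335, plus strand: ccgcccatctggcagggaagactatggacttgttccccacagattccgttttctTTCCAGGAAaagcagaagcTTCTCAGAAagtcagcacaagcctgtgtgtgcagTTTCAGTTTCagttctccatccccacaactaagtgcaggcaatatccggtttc
Gbp3 promoter, chr3:142559884-142560043, plus strand: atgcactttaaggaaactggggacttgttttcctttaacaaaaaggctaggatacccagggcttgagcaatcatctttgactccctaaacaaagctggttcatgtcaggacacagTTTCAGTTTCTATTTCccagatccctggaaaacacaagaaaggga
All 5 GTPase promoters hold an ISRE core, Gbp3 and Irgm1 as 2 overlapping copies. In Igtp a GAS motif begins 45 and the ISRE core 34 bases before the start, in Irgm2 75 and 64 bases, and Gbp7 has 2 GAS motifs. Irf1 holds a GAS and an NF-kB match and no ISRE core. Where 2 starts are listed, as for Irf1 and Gbp3, the stretch with more matches is shown.

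The rest of the pathway showed higher interferon gamma signals beside lower receptor signals. From a list of 131 other interferon pathway genes, 96 were used; 54 of them fell (56.3%, against 22.8% of all genes) and 17 rose (17.7%, against 22.0%). Of 6 ligand genes above the floor, Ifng read 3.90 in WT_NS, 7.81 in WT_ST, 4.28 in TIL_NS and 7.96 in TIL_ST, and rose by 3.8 (limma, SE 0.16, adjusted p = 0.00109). Ifnb1, for the main early type I interferon, stayed below the floor in all 4 arrays, between 1.70 and 2.29. Ifna4 fell by 0.88 (adjusted p = 0.0325), a call that ended without a filter on low signals, and Ifna1, Ifna14, Ifnl2 and Ifnl3 were not called. T and NK cells are the usual sources of interferon gamma. The summed signal of the 9 measured NK cell markers went from 299 to 137 in wild type and from 330 to 128 in Tilcara with stimulation. That of the 9 measured T cell markers went from 182 to 123 and from 111 to 91.9. Which of the sorted cells gave the Ifng signal was not tested.

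Of the 5 receptor chain genes used, 4 fell. Ifngr2 fell by 2.42, Ifngr1 by 1.56, Ifnar1 by 1.52 and Il10rb, whose chain interferon lambda shares with interleukin-10, by 1.27 (limma, adjusted p = 0.00311, 0.00285, 0.00317 and 0.0169). Ifnar2 read 8.02, 8.05, 8.17 and 7.51 in WT_NS, WT_ST, TIL_NS and TIL_ST and was not called (adjusted p = 0.305). Of the kinases, Tyk2 fell by 1.21 (adjusted p = 0.00603) and Jak1 by 0.98 (adjusted p = 0.0181). Jak2 read 7.70, 8.84, 7.79 and 7.29, so its single-array responses had opposite signs. Stat3 rose by 1.68 (adjusted p = 0.00265), and Stat4 was not called.

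The IRF genes also split. Irf4, a factor of B cell activation, rose by 2.08 (limma, adjusted p = 0.00160) and Irf8 by 1.23 (adjusted p = 0.00485). Irf7, which amplifies type I interferon production and is itself interferon-induced, fell by 1.36 (adjusted p = 0.00716), and Irf2, which can oppose IRF1, fell by 2.53 (adjusted p = 0.0042). Irf3, between 8.07 and 8.31, and Batf2 were not called. Inhibitors of the pathway included Socs1, a direct inhibitor of JAK kinases, which rose by 2.10 (adjusted p = 0.00163), and Ptpn2, a phosphatase of JAKs and STATs, which rose by 1.21 (adjusted p = 0.00496). Socs3 read 4.91, 8.0, 5.49 and 6.27 in WT_NS, WT_ST, TIL_NS and TIL_ST and missed the threshold (limma change 1.93, adjusted p = 0.0503), which it passed in 3 of 6 alternative settings. Ptpn6, for the phosphatase SHP-1, fell by 3.81 (adjusted p = 0.00118).

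Among 12 genes whose products induce interferon, 6 fell (50%, against 22.8% of all genes) and 1 rose (8.33%, against 22.0%). Sting1, the adaptor of DNA sensing, fell by 5.23, Ddx58, for the RNA sensor RIG-I, by 3.73 and Unc93b1, which carries nucleic-acid-sensing Toll-like receptors to endosomes, by 3.41 (limma, adjusted p = 0.00109, 0.00109 and 0.00170). Ifih1, for the RNA sensor MDA5, rose by 1.54 (adjusted p = 0.0028). Among 56 further interferon-induced genes, 37 fell (66.1%, against 22.8% of all genes) and 9 rose (16.1%, against 22.0%). The largest increases were those of Iigp1, an IRG GTPase gene (5.05), the chemokine gene Cxcl10 (4.73) and Casp4, for an inflammatory caspase (2.62), and the largest decreases those of Ifit1bl1 (−3.46), Uba7, the E1 enzyme of ISG15 (−3.43), and the immunoproteasome gene Psmb10 (−3.33). Iigp1 read 2.2 and 2.23 without stimulation, below the floor, and 7.42 and 7.10 with it. Also below the floor were Cxcl10 without stimulation (2.96 in wild type, 2.64 in Tilcara) and, with it, Sting1 (3.14 and 3.22) and Ifit1bl1 (1.90 and 2.50). The sizes of these changes are therefore approximate.

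**Figure D3:**
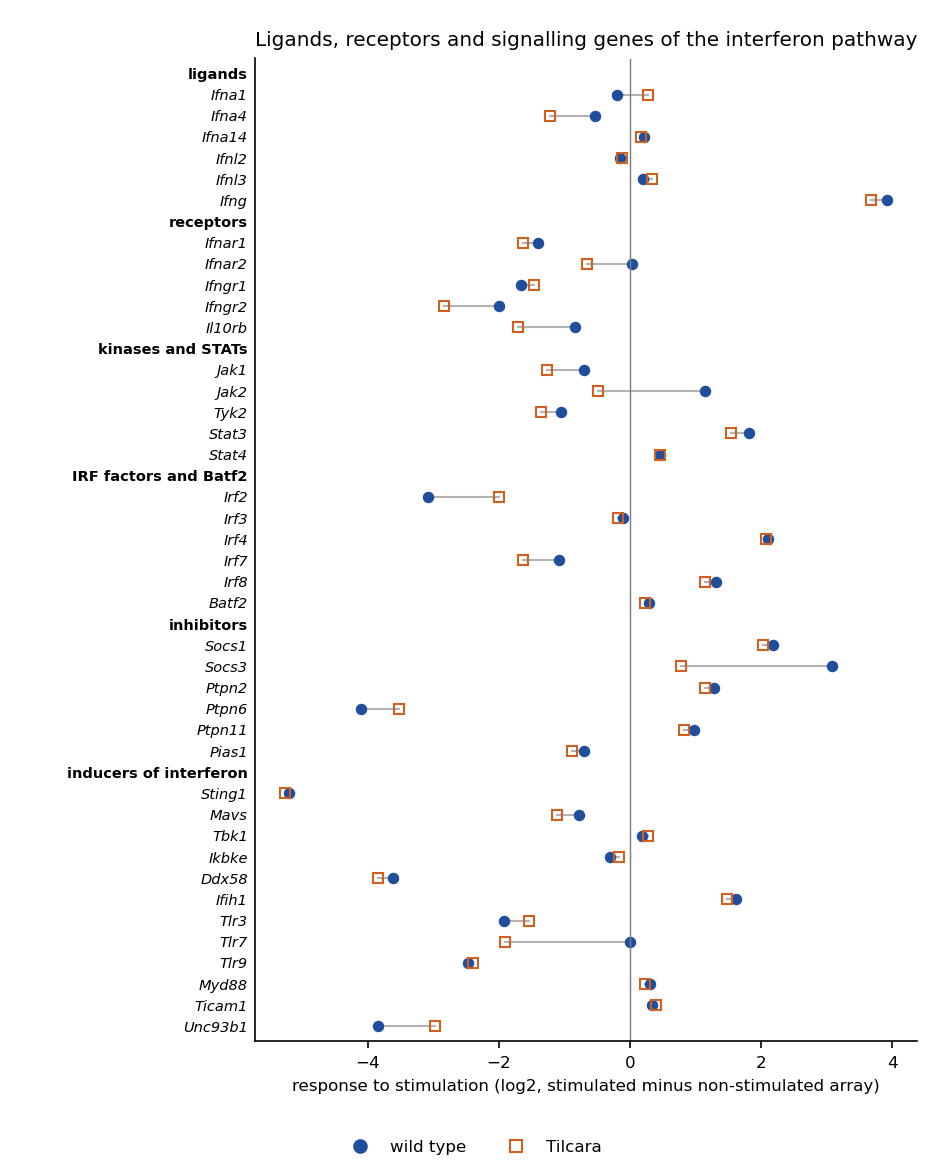
Responses (log2, stimulated minus non-stimulated array) of ligand, receptor, kinase, STAT, IRF, inhibitor and sensor genes above the signal floor, with blue circles for wild type and orange squares for Tilcara, 1 array per group. Ifng, Socs1 and Irf4 lie to the right and Sting1, Ptpn6 and Ddx58 to the left in both genotypes, and Jak2, Socs3 and Tlr7 have the widest gaps between genotypes.

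Both genotypes gave these genes a similar response. Across the 38 genes (genes do not replicate one another) Pearson's r between the responses was 0.969 and Spearman's rho 0.949; over all genes used r was 0.913. The responses differed by under 0.5 for 28 of 38 genes, for which the share of all genes was not computed. Ifit3 (1.04), Herc6 (1.04) and Rtp4 (1.02) had a Tilcara response at least 1 above the wild-type response (7.89%, against 2.32% of all genes). No listed gene had one at least 1 below it, where 1.65% of all genes did. None of the 3 passed 1 after centring each array on its median, with values of 1.00, 0.99 and 0.97, or after cyclic loess, with 0.99, 0.98 and 0.95. Of the 18 genes that fell, 14 (77.8%) fell less in Tilcara, against 58.7% of the 2836 genes that fell over the whole array. The median difference between the responses of the 18 was 0.26, against 0.08 for all that fell. In the stimulated arrays Rtp4 read 2.93 in wild type and 4.09 in Tilcara, and Herc6 3.02 and 3.65, so at least 1 of the paired signals lay below the floor. For Ifit3 the difference came from the non-stimulated arrays, 6.52 and 5.47, as the stimulated signals were equal.

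Without stimulation, 2 of 38 genes were at least 2-fold lower in Tilcara (5.26%, against 0.658% of all genes) and 0 at least 2-fold higher (against 0.425%). These were Ifitm2, 3.63-fold lower, and Ifit3, 2.06-fold lower; Ifit3 fell short of 2-fold, at −0.99, with each array centred on its median. For 33 of 38 genes the non-stimulated difference was under 0.5 in size, for which the share of all genes was not computed. The median was −0.11, where the median over all genes was 0.02. After stimulation Ifitm2 was again lower in Tilcara, by 3.66-fold (1 of 38, or 2.63%, against 0.747% of all genes), and Rtp4 was 2.22-fold higher (2.63%, against 0.955%). Ifitm3 was lower in Tilcara by 0.85 without and 0.50 with stimulation. For the main effect of genotype limma called 0 of 12456 genes, and 667 of the 12456 had an unadjusted p under 0.05. Of the 38 listed genes 3 did: Ifitm2 (unadjusted p = 0.000110, adjusted p = 0.866), Ifitm3 and Mx1. An unadjusted threshold of 0.05 also passes genes without an effect, so this count of 3 is not read as a result.

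Markers of other cells also differed between the non-stimulated arrays, not all in the direction of Ifitm2 and Ifitm3. The summed neutrophil signal was 832 in WT_NS and 107 in TIL_NS, that of macrophage markers 347 and 239, and that of T cell markers 182 and 111. The sum of NK cell markers was higher in Tilcara, with 299 in WT_NS and 330 in TIL_NS. Of 12 neutrophil markers, 7 lay below the floor in all 4 arrays. These were Ly6g, Mmp8, Ltf, Camp, Retnlg, Ngp and Csf3r, the last 3 just under it in WT_NS (3.82, 3.81 and 3.79). Cxcr2 (4.08), Mmp9 (3.87) and Lcn2 (3.89) lay just above it in WT_NS, while S100a8 read 9.0 and S100a9 7.61. All 12 read lower in TIL_NS than in WT_NS. The macrophage marker Lyz2 read 5.99 in WT_NS against 3.28, 3.43 and 2.52 in WT_ST, TIL_NS and TIL_ST. In the stimulated arrays, where Ifitm2 was 7.84 in wild type and 5.97 in Tilcara, the neutrophil sums were 101 and 83.0, the macrophage sums 350 and 398 and the T cell sums 123 and 91.9. Of 8 T cell markers used, 1 was at least 2-fold lower in stimulated Tilcara, and the median difference was −0.08. This was Thy1, at 5.01 in WT_ST and 3.84 in TIL_ST, 2.24-fold lower. Cd3d, Cd3g and Cd8b1 were higher in TIL_ST by 0.33, 0.40 and 0.36, from signals below the floor. Cd3e was nearly equal, and Cd4, Zap70 and Cd28 differed by −0.15, −0.60 and −0.83. The part of these cells in the Ifitm2 and Ifitm3 differences was not tested. Plasmacytoid dendritic cells carry B220 and express many interferon-stimulated genes. The 9 measured of their 10 markers summed to 364 in WT_NS, 303 in WT_ST, 435 in TIL_NS and 315 in TIL_ST, and 2 to 4 of them lay below the floor in an array. Among them Siglech fell (limma change −1.75, adjusted p = 0.00231), by 3.65-fold in wild type and 3.11-fold in Tilcara, to signals below the floor, and the other 7 tested were not called. Klk1 read 6.41 in TIL_NS and 2.75 in WT_NS, which raises the TIL_NS sum. Their part in the decreases with stimulation was not tested.

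**Figure D4:**
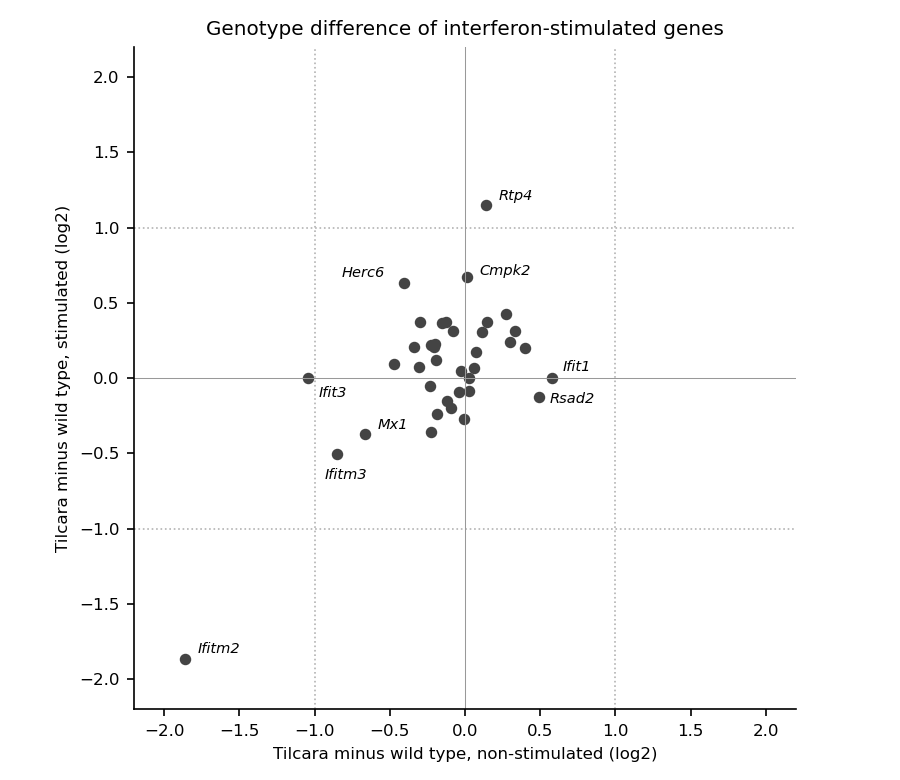
Tilcara minus wild type (log2) with stimulation (vertical axis) against the same difference without it (horizontal axis) for the 38 interferon-stimulated genes, 1 array per group; dotted lines mark 2-fold. Ifitm2 lies apart at −1.86 and −1.87, Rtp4 passes 2-fold with stimulation alone and Ifit3 without it alone.

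Both other families of interferon-inducible genes that were listed held mostly genes that fell. All 7 used genes of the Trim30 and Trim34 cluster fell (100%, against 22.8% of all genes). Their median response was −2.83 in wild type and −2.2 in Tilcara, where that of all genes was 0.03 and 0.04. Trim34a, Trim30b and Trim12c led, at limma changes of −5.66, −5.12 and −3.18. Of 7 used genes of the Ifi200 (PYHIN) family, for DNA sensors and their relatives, 6 fell (85.7%, against 22.8% of all genes). Ifi209, Ifi208 and Ifi213 were the most decreased, at −3.68, −3.55 and −2.85. Ifi202b rose, by 5.54 (1 of 7, or 14.3%, against 22.0% of all genes). With stimulation Trim30b and, in wild type, Trim34a and Ifi208 read below the floor, as did Ifi202b without it, so these sizes are approximate. Whether these families differ from the 38 genes was not tested.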

How the data were processed

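Biotin-labelled RNA was hybridised to Affymetrix arrays, per the labels' protocols. The 41345 probe sets carry log2 signals that the authors made with RMA (background correction, quantile normalization between arrays, 1 value per probe set), per the submitters' processing notes. The software, its version and a genome build: not given in the sources used here. Array medians lay between 3.73 and 3.79. Quantile normalization hides a change in total RNA per cell.

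Symbols came from the platform annotation, and 23521 probe sets had 1 symbol, 1814 several and 16010 none. The probe set with the highest mean stood for its gene, and genes entered the fit when at least 1 array reached 3.83, the median of named probe sets. Samples were grouped by title, 1 array per group. The fit used lmFit and eBayes of limma 3.58.1 in R 4.3.3, with Benjamini-Hochberg adjustment over all 12456 genes. With 4 arrays, their number limits the precision. The fit was tested on simulated data for the stimulation effect in 12456 genes: it called 100 of 100 genes changed by 2 and 93 of 100 changed by 1 on the log2 scale. It also called 17 of 12256 unchanged genes. The simulated noise was independent between arrays and drawn with the fit's own variances, and far fewer genes changed than in the data. The simulation therefore does not give the error rate of the calls made here. Nothing in the labels says that samples came from separate animals, so p-values rest only on these arrays and measure no spread between animals.

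The 38 genes and the other lists were chosen with earlier results of these data known. All listed genes are described; of other pathway genes, every ligand, receptor, kinase, STAT and IRF gene may be named, and in each other group up to 3 genes with the largest increase and 3 with the largest decrease of at least 1. Genes outside this rule are marked as chosen later. As alternatives, arrays were centred on their medians or normalized by cyclic loess, probe sets of a gene were averaged, the floor was dropped or set to 5, and eBayes was run with a variance trend. Promoter sequences are from RefSeq (GRCm38.p6).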

Additional observations from a re-analysis of the deposited data

Results flagged for a closer look

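The genes looked at were the 38 listed genes and, from the pathway list, 6 ligand, 5 receptor, 5 kinase or STAT and 6 IRF-group genes. Of these, 8 had responses of opposite sign in wild type and Tilcara. The share of all genes with opposite signs was not computed, so this count cannot be called high or low. For Ifnar2, Rsad2 and Ifi35 the wild-type response was close to no change. Each group was 1 array, and none of these differences was tested. The Tilcara response minus the wild-type response was −1.64 for Jak2 (1.14 in wild type, −0.49 in Tilcara), 1.04 for Ifit3 (−0.83 and 0.21), −0.69 for Ifnar2 (0.03 and −0.66), −0.61 for Rsad2 (0.01 and −0.60), 0.57 for Zbp1 (−0.41 and 0.16), 0.47 for Ifna1 (−0.19 and 0.27), 0.45 for Adar (−0.19 and 0.26) and −0.11 for Ifi35 (0.00 and −0.11). Of these 8, Jak2 passed 2-fold, in wild type. Among the further interferon-induced genes of the pathway list, Cxcl9, Slfn2 and Apol9a also had opposite signs, with differences of 1.27, −0.73 and 0.09; that of Cxcl9 (−0.08 in wild type, 1.19 in Tilcara) is larger than that of Ifit3.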

How the results depend on the processing

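Under 6 alternatives, no limma change of a listed gene, or of another pathway, Trim30 cluster or Ifi200 gene, that was called changed sign. For the 38 genes, 217 of the recomputed values kept their side of the threshold, 6 passed it newly (Isg20 in 5 settings and Bst2 after cyclic loess) and 1 no longer passed it (Lgals3bp without a filter). The counts of listed genes that rose and fell, and of those at least 2-fold different in each response, stayed within 1.5 times their reported values. Centring each array on its median left 1 of 2 genes at least 2-fold lower in non-stimulated Tilcara, and after it or cyclic loess 0 of 3 genes had a Tilcara response at least 1 above that of wild type. The median stimulation effect over all genes lay between −0.01 and 0.05 in all settings. With a floor of 5, 34 of the 38 genes were tested. No array could be left out, as each group has 1, and signals near the floor limit folds from below. No paired analysis was possible because each group has 1 array and the labels give no replicate numbers.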

Other observations

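Some further genes of MHC class I presentation are given here as single values, chosen after those values were seen. Psmb8, an immunoproteasome gene, fell by 2.33 on the log2 scale (limma, adjusted p = 0.00160), Tapbp, for the loading chaperone tapasin, by 0.95 (adjusted p = 0.00861) and Tap2, the partner of Tap1, by 0.87 (adjusted p = 0.0156). Nlrc5, the transactivator of class I genes, rose by 1.32 (adjusted p = 0.00996), and B2m, for the light chain, read between 12.11 and 12.23 in the 4 arrays. The immunoproteasome gene Psmb9 was not called (limma change −0.55, adjusted p = 0.0508), and neither were B2m and Tap1.

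The signals of Ifit3 (5.69) and Dhx58 (4.36) were identical to all deposited digits in both stimulated arrays. Such identity held for 2 of 38 listed genes (5.26%) and 39 of all 12456 genes (0.313%).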
